A study of Rattus norvegicus with 6 samples.

Results

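The genes described here were those of autotaxin (*Enpp2*) and of the enzymes and receptors of lysophospholipid signalling in the rat lateral ventricular choroid plexus. They were selected on a readout of these same pools: the rule took the deposited table of genes that the authors had called different between embryo and adult, which holds 10653 of the 29479 gene identifiers in the count table. In that table it took every gene named *Enpp*, *Lpar* or *S1pr* with a single digit, or *Ppap2a*, *Ppap2b* or *Ppap2c*. Of the 16 genes that matched, *Enpp2* and the 9 others with the most counts over all libraries were kept, which gave 10 genes. The last gene kept, *S1pr2*, had 1525 counts in all, and the first left out, *Ppap2c*, had 1462. The remaining matches were *Enpp1* with 632 counts, *Lpar2* with 379, *Lpar5* with 79, *S1pr4* with 69 and *S1pr5* with 54. Since the choice used the comparison of the ages, the differences between the ages of these genes are given below as a description, with no p-value.

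The study sequenced RNA of the plexus at embryonic day 15 (E15) and in adults of 6 weeks, all Sprague-Dawley rats that received no treatment. The adults were not pregnant. Each library came from both lateral plexuses of 10 animals pooled together, with 3 pools at each age, so that the spread between libraries is a spread between pools and not between single animals. The tissue was whole plexus, a sheet of epithelium over stroma, vessels and the blood within them, although the series is titled for its epithelial cells.

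Autotaxin is a secreted lysophospholipase D. It removes the choline from lysophosphatidylcholine outside the cell and leaves lysophosphatidic acid (LPA), a lipid that signals through its own G protein-coupled receptors. Sphingosine 1-phosphate (S1P) is a related lipid with a receptor family of its own, is made inside cells by sphingosine kinases and is exported. Both signals can be ended by lipid phosphate phosphatases, whose active site faces the outside of the cell and which take off the phosphate group. The choroid plexus, the tissue that secretes cerebrospinal fluid, is a known source of autotaxin in the brain, and myelin-forming oligodendrocytes are another.

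The libraries held between 17875089 and 19204440 counts. Raw counts are whole reads per gene. Normalized counts are counts divided by the library size after TMM scaling, a correction for differences in RNA composition, and multiplied to a common size of 18566369. Gene length was not taken out, so counts are compared between pools for a gene and not between genes. A log2 fold change is E15 minus adult, so that negative values are higher in the adult. The 10 genes with the highest mean count, *Enpp2* among them, held 4.86 to 5.90% of the counts of the E15 pools and 24.2 to 27.3% of those of the adult pools. Scaling by total counts only, without TMM, gave another zero point: over all 16643 genes tested the middle log2 fold change (median) was 0.14 under TMM and 0.95 under total counts. E15 replicate 1 differed from the mean of the other E15 pools by a median of 0.31 on the log2 scale, over 10930 genes with a mean normalized count above 100. Of these genes, 8.99% were more than 1.5 times above and 10.9% more than 1.5 times below the other E15 pools, and for *Lpar1*, *Lpar4* and *S1pr2* the fold without E15 replicate 1 is also given.

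Autotaxin and its membrane-bound relatives *Enpp4* and *Enpp5* were higher in the adult plexus, as were the lipid phosphate phosphatases *Ppap2a* and *Ppap2b*. The LPA receptors *Lpar1* and *Lpar4*, the S1P receptors *S1pr1* and *S1pr2* and the nucleotide-degrading ectoenzyme *Enpp3* were higher at E15. All 10 genes passed the minimum of more than 10 counts. In edgeR's quasi-likelihood test at an adjusted p of 0.05, 5 of them were called at E15 and 5 in the adult, where 34.7% and 29.3% of all genes tested were called in those directions. Their pools did not overlap between the ages in 10 of 10 genes, where 70.1% of all genes tested had no overlap. As the rule started from genes called in this contrast, nothing is read from these counts. The median log2 fold change of the 10 genes was 0.06 and their range ran from -7.57 to 3.23. Under total counts only, 5 were called at E15 and 3 in the adult, where the shares of all genes were 58.9% and 13.8%. In these bulk pools, fewer cells of a type and less RNA per cell cannot be told apart.

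**Figure D1:**
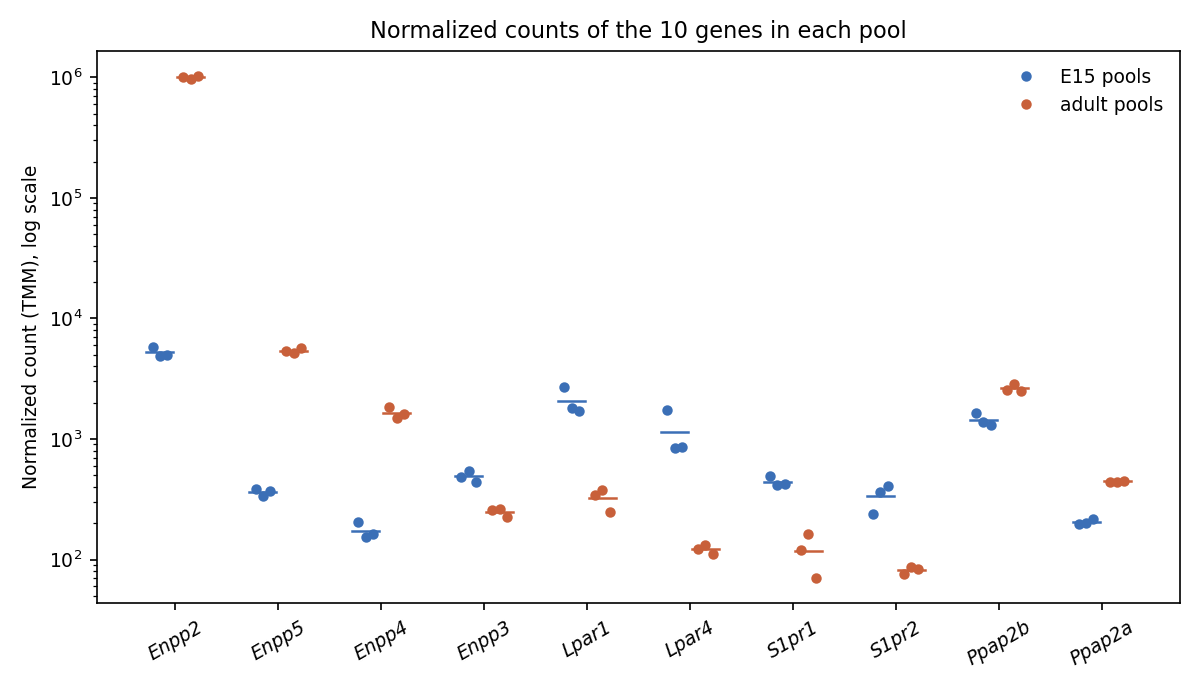
Normalized count (TMM, log scale) of each of the 10 genes in each pool, with blue points for the 3 E15 pools, orange points for the 3 adult pools and a line at the mean of each age. The pools of the ages do not overlap for any of the 10 genes, and the *Enpp2* points lie near 5251 at E15 and 999657 in the adult.

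*Enpp2* (ENSRNOG00000004089) was counted 7404, 6621 and 6616 times in the pools of E15 and 738945, 770126 and 775841 times in those of the adult. The E15 pools lay close together, with replicate 1 slightly above the others, and the adult pools lay closer still and far above them. Normalized counts averaged 5251 ± 512 in embryonic and 999657 ± 32469.9 in adult pools (SD, n = 3 pools at each age). The fitted difference was 190.4-fold toward the adult, a log2 fold change of -7.57 with a standard error (SE) of 0.13. It was 109-fold under total counts only and lay between 185- and 202-fold when each pool was left out in turn. Among the 10930 genes with a mean normalized count above 100, 20 had a larger fitted difference toward the adult.

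The transcript went from a minor to a major part of the library. *Enpp2* made up 0.0350 to 0.0414% of all counts in the E15 pools and 3.99 to 4.21% in the adult pools. Of the counts of the 10 genes together it held 41.9 to 45.9% at E15 and 98.9% in the 3 adult pools. Transthyretin (*Ttr*), the thyroid hormone carrier that marks plexus epithelium, offers a measure that needs no scaling between libraries. *Enpp2* had 1.55, 1.09 and 1.08 counts per 100 counts of *Ttr* in embryonic pools, against 22.8, 26.6 and 29.3 in adult ones, a 21.3-fold higher ratio in the adult with no overlap. Thus *Enpp2* differed more between the ages than *Ttr* did in every pairing of an adult with an E15 pool.

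The cell type markers of the labelled tissue were present at both ages. Markers of every list were matched only in the table of genes the authors had called between the ages. Their counts by direction are thus a description. Of all genes tested, 34.7% were called at E15 and 29.3% in the adult. Of 10 markers of plexus epithelium, 9 were matched and 9 were higher in the adult, with a median log2 fold change of -2.42, a smaller difference than that of *Enpp2*. Their summed normalized count was 433453 to 538093 at E15 and 3864670 to 4772350 in the adult. Of 9 oligodendrocyte markers, 8 were matched, 6 higher in the adult and 1 at E15, and their sum was 909 to 1302 at E15 and 14040, 5621 and 3134 in adult replicates 1 to 3. Myelin basic protein (*Mbp*) had 6888, 2673 and 1391 normalized counts in those adult pools, where *Enpp2* had 1008320, 963734 and 1026920. *Enpp2* was highest in replicate 3 and the oligodendrocyte sum in replicate 1. The part of oligodendrocytes in the *Enpp2* counts was not tested.

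By the fixed measure of likeness, the root mean square difference of the log2 profile over the 6 libraries after each gene's own mean was taken out, transferrin (*Tf*), the iron carrier, was nearest to *Enpp2* among 10929 genes. Its difference was 0.0867, and it averaged 1546 normalized counts in embryonic pools and 279387 in adult pools. The next named genes were D3ZV73_RAT with 0.200, *Ermn*, a myelin-associated cytoskeletal gene, with 0.233, *C1qtnf3* with 0.248 and *Acsl6*, a long-chain acyl-CoA synthetase, with 0.284. *Ermn* averaged 5.11 normalized counts in embryonic and 1239 in adult pools, so its E15 side rests on few reads. The measure takes in the difference between the ages together with the spread among the pools of an age.

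Both *Enpp5* and *Enpp4* were higher in every adult pool than in any E15 pool. *Enpp5* (ENSRNOG00000010232), a membrane-anchored member of the family, was counted 490, 455 and 486 times at E15, against 3909, 4124 and 4305 times in adults. Its normalized count averaged 364 ± 24.6 in embryonic and 5398 ± 274 in adult pools (SD, n = 3), a 14.8-fold difference (log2 fold change -3.89, SE 0.11). The pools of each age lay within a narrow band. *Enpp4* (ENSRNOG00000010174), a surface enzyme that splits diadenosine triphosphate and is known from the vessel wall, was counted 258, 208 and 215 times at E15, against 1353, 1191 and 1210 times in adults. Its normalized count averaged 173 ± 26.3 in embryonic and 1646 ± 182 in adult pools (SD, n = 3), a 9.49-fold difference (log2 fold change -3.25, SE 0.15). Replicate 1 was the highest pool at both ages, with no overlap between them.

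*Enpp4* and *Enpp5* are neighbours among the protein-coding genes of chromosome 9 in the RefSeq annotation of the rat build GRCr8. They lie on opposite strands and point toward each other, with 28296 bases between their starts. Their ratio within a library, *Enpp5* to *Enpp4*, was 1.90, 2.19 and 2.26 at E15 against 2.89, 3.46 and 3.56 in adults, so that *Enpp5* differed more between the ages by 1.56-fold. The promoters of this pair are printed because the genes lie side by side and were higher at the same age. The promoter of *Lpar4* stands beside them as that of a gene higher at E15. Each runs from 250 bases before to 50 bases after the start of the gene in the RefSeq promoter table, 5′ to 3′ on the strand of the gene. That of *Enpp5* is chr9:24414818-24415117 on the minus strand, that of *Enpp4* is chr9:24386321-24386620 on the plus strand and that of *Lpar4* is chrX:76106069-76106368 on the plus strand, all in GRCr8. Capitals mark matches on either strand to 5 motifs: the TATA box (TATAAA), the GC box (GGGCGG), the CCAAT box (CCAAT), the core of the Otx homeodomain site (TAATCC) and the Fox site (GTAAACA).
Enpp5: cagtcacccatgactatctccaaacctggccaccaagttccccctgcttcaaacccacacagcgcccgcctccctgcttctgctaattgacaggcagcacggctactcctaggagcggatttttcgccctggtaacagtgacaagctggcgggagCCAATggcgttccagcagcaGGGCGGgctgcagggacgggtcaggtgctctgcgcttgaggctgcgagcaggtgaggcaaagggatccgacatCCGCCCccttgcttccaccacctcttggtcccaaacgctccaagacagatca
Enpp4: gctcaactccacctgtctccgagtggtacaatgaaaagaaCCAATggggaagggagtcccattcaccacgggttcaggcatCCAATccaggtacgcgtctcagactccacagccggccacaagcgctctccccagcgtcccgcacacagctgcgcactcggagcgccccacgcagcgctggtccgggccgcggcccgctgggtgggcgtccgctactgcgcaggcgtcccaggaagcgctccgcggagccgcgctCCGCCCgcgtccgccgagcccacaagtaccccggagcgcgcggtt
Lpar4: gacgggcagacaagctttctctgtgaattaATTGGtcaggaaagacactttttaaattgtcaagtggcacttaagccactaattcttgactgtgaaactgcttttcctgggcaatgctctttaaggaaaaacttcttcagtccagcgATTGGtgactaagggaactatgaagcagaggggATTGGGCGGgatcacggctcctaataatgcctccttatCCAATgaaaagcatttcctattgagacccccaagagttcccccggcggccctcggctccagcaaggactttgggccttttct

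In *Enpp5* a CCAAT box began 95 bases and a GC box 75 bases before the start, both on the strand of the gene, and a second GC box on the other strand began 2 bases before it. In *Enpp4* the CCAAT boxes began 210 and 169 bases before the start, and the GC box, on the other strand, began 5 bases after it. *Lpar4* held 4 CCAAT boxes, which began 220, 103, 70 and 32 bases before the start, and the third of them shared letters with the GC box that began 67 bases before it (ATTGGGCGG). The table has entries for 8 of the 10 genes, all but *Enpp2* and *Lpar1*. Of these 8 promoters, 6 held a GC box and 6 a CCAAT box, against 33.1% and 37.5% of all 33469 promoters of the same length. None of the 8 held the TATA box, the Otx motif or the Fox motif as spelled, which 14.2%, 7.17% and 3.78% of all promoters held. Base composition differs among them, with 60.7% G and C in *Enpp5*, 69% in *Enpp4* and 47.3% in *Lpar4* against a median of 51.7% over the table. The others held 70% in *Ppap2a*, 66.3% in *S1pr1* and in *S1pr2*, 51.3% in *Ppap2b* and 41.3% in *Enpp3*. The motif shares were not adjusted for base composition. These matches describe letters in a window and no binding was measured.

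*Enpp3* (ENSRNOG00000013791), an ectoenzyme that hydrolyses extracellular nucleotides, was the one of the 4 *Enpp* genes kept that was higher at E15. It was counted 617, 730 and 578 times at E15, against 190, 208 and 169 times in adults. Every E15 pool was above every adult pool, and the spread within each age was small. Normalized counts averaged 488 ± 52.5 in embryonic and 248 ± 20.8 in adult pools (SD, n = 3), 1.97-fold higher at E15 (log2 fold change 0.98, SE 0.15). *Enpp1*, its neighbour in the RefSeq annotation and the enzyme that makes extracellular pyrophosphate, was among the matched genes left out and averaged 124 ± 4.78 normalized counts in embryonic and 62.1 ± 33.2 in adult pools (SD, n = 3). Its 3 adult pools held 18, 70 and 56 raw counts and were spread more widely than its E15 pools.

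Of the LPA receptors, *Lpar1* (ENSRNOG00000013656), which is known from neural progenitors of the embryonic ventricular zone and from oligodendrocytes, was counted 3437, 2447 and 2249 times at E15, against 251, 301 and 188 times in adults. The E15 pools were all far above the adult pools, and E15 replicate 1 stood above the other E15 pools by 1.54-fold. Normalized counts averaged 2076 ± 553 in embryonic and 323 ± 66.2 in adult pools (SD, n = 3), 6.43-fold higher at E15 (log2 fold change 2.68, SE 0.22) and 5.43-fold without E15 replicate 1. *Lpar4* (ENSRNOG00000002428), an LPA receptor outside the family of *Lpar1* and known from blood vessel formation, was counted 2194, 1131 and 1139 times at E15, against 90, 105 and 84 times in adults. Here E15 replicate 1 stood above the other E15 pools by 2.04-fold, while those 2 pools were nearly equal. Its normalized count averaged 1144 ± 509 in embryonic and 122 ± 10.1 in adult pools (SD, n = 3), 9.37-fold higher at E15 (log2 fold change 3.23, SE 0.30) and 6.95-fold without E15 replicate 1.

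*S1pr1* (ENSRNOG00000013683), the receptor through which S1P acts on endothelial cells during vessel maturation, was counted 625, 556 and 562 times at E15, against 88, 131 and 53 times in adults. The E15 pools lay together, and the adult pools were spread with a coefficient of variation of 39.7%, below every E15 pool. Normalized counts averaged 443 ± 43.3 in embryonic and 118 ± 46.9 in adult pools (SD, n = 3), 3.75-fold higher at E15 (log2 fold change 1.91, SE 0.27) and 3.06- to 4.56-fold with single pools left out. *S1pr2* (ENSRNOG00000020653), a second receptor for S1P, was counted 303, 493 and 541 times at E15, against 56, 69 and 63 times in adults. The E15 pools were uneven, with replicate 1 at 0.617 of the mean of the others, although still above every adult pool. Its normalized count averaged 338 ± 88.3 in embryonic and 82.0 ± 5.10 in adult pools (SD, n = 3), 4.11-fold higher at E15 (log2 fold change 2.04, SE 0.24) and 4.70-fold without E15 replicate 1.

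Endothelial markers were higher at E15, as these receptors were. So were the matched markers of red cells, developing neurons and proliferation, and 5 of 7 stromal markers. The shares of all genes tested that were called at E15 and in the adult were 34.7% and 29.3%. Of 10 endothelial markers listed, 8 were matched among the genes the authors had called, and 8 were higher at E15. Their summed normalized count was 8665 to 12636 at E15 and 996 to 1400.3 in the adult. Per 100 raw counts of those 8 markers, *S1pr1* reached 5.69, 3.27 and 3.98 at E15 against 12.1, 11.7 and 6.22 in adults. *S1pr2* reached 2.76, 2.90 and 3.83 per 100 at E15 against 7.67, 6.17 and 7.39 in adults. Both ratios were higher in the adult, by 2.28-fold and 2.25-fold, with no overlap between the ages. The receptors thus differed less between the ages than the summed endothelial markers did. That sum weights the markers with the most counts, and single markers differed by unlike amounts. *Pecam1* had 476, 405 and 326 normalized counts at E15 against 92.8, 141 and 116 in adults, and *Emcn* 519, 539 and 500 against 139, 165 and 151. *Cdh5* had 1795, 2618 and 2206 against 46.4, 110 and 66.2. The receptors were not compared with single markers. The part of vessel cells in the receptor counts was not tested.

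*Ppap2b* (ENSRNOG00000008116; lipid phosphate phosphatase 3, now *Plpp3*), an ectoenzyme that removes the phosphate of LPA and S1P and is needed for vessel formation, was counted 2087, 1861 and 1727 times at E15, against 1880, 2265 and 1890 times in adults. The raw counts overlapped between the ages, and the normalized counts, 1646, 1381 and 1305 in embryos against 2565, 2834 and 2502 in adults, did not. The difference was 1.82-fold toward the adult under TMM (log2 fold change -0.87, SE 0.12), and under total counts only the log2 fold change was -0.06 and the gene was not called. *Ppap2a* (ENSRNOG00000009980; lipid phosphate phosphatase 1, now *Plpp1*) was counted 252, 273 and 287 times at E15, against 323, 354 and 341 times in adults. Its normalized count averaged 206 ± 9.55 in embryonic and 445 ± 5.59 in adult pools (SD, n = 3), 2.16-fold higher in the adult (log2 fold change -1.11, SE 0.13). Under total counts only its log2 fold change was -0.30 and it was not called either.

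No direction reversed under any scaling tried, and the other 8 genes kept their calls under total counts. A scaling shifts every gene by about the same amount, so differences relative to the median gene do not depend on it by construction. They were -7.71 on the log2 scale for *Enpp2*, -1.01 for *Ppap2b* and -1.25 for *Ppap2a*.

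**Figure D2:**
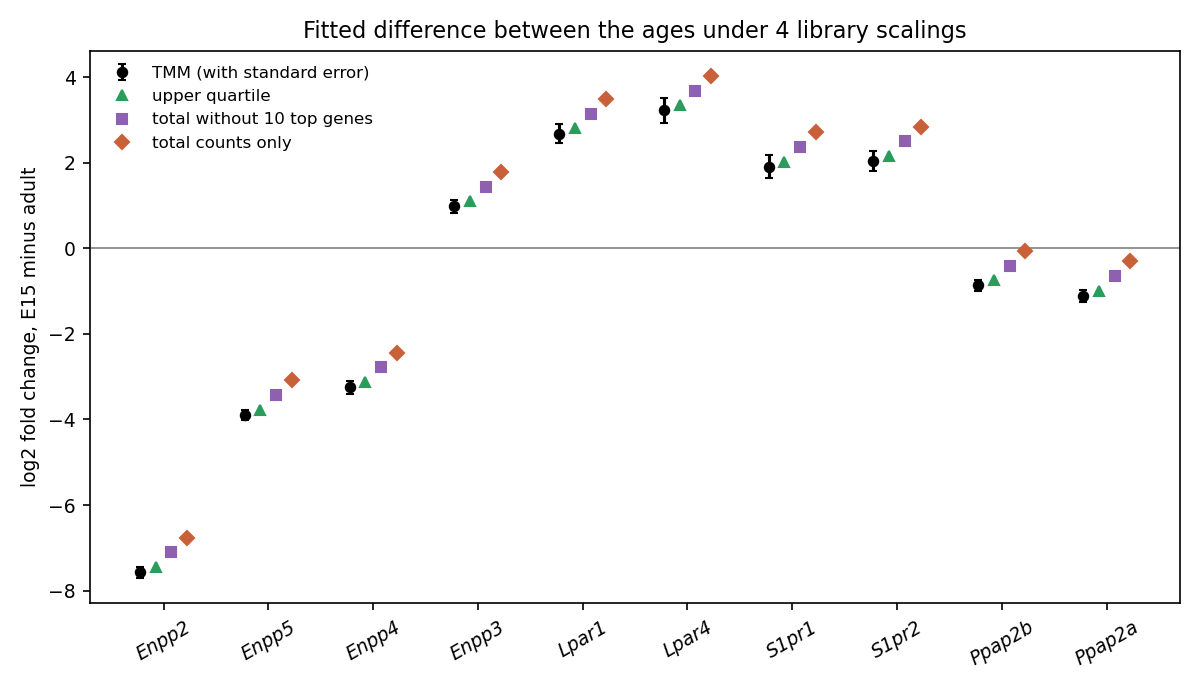
Fitted log2 fold change (E15 minus adult) of each of the 10 genes under 4 library scalings, with the standard error on the TMM value. The 4 scalings shift all genes by like amounts: *Enpp2* stays between -7.57 and -6.77, *Lpar4* between 3.23 and 4.03, and the phosphatases *Ppap2b* and *Ppap2a* come to lie near 0 under total counts only.

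Ratios of raw counts within a library need no scaling, although the genes differ in length, so that a ratio has meaning in its difference between the ages only. For the enzyme that makes LPA against 2 of its receptors, *Enpp2* to the sum of *Lpar1* and *Lpar4*, the ratio was 1.31, 1.85 and 1.95 in embryonic pools against 2167, 1897 and 2852 in adult ones. The ratio was 1351-fold higher in the adult. For the same enzyme against 2 phosphatases that degrade LPA, *Enpp2* to the sum of *Ppap2a* and *Ppap2b*, it was 3.17, 3.10 and 3.29 at E15 against 335, 294 and 348 in adults, 102-fold higher in the adult. These genes had been chosen by the authors' call in this contrast, so the ratios are a description. The sums leave out the other LPA receptors, among them *Lpar2* and *Lpar5*, and the phosphatase *Ppap2c*, 8.13-fold higher in the adult. The receptors *Lpar1* and *Lpar4* against these phosphatases gave 2.41, 1.68 and 1.68 at E15 against 0.155, 0.155 and 0.122 in adults, 13.2-fold higher at E15. Within each of these 3 ratios the pools of the ages were far apart.

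Ratios within the pair of LPA receptors, the pair of S1P receptors and the pair of phosphatases kept differed less between the ages. The phosphatase *Ppap2c*, 8.13-fold higher in the adult, was not part of these pairs. *Lpar1* to *Lpar4* was 1.57, 2.16 and 1.97 at E15 against 2.79, 2.87 and 2.24 in adults, a 1.39-fold difference. *Ppap2b* to *Ppap2a* overlapped between the ages, at 8.28, 6.82 and 6.02 at E15 against 5.82, 6.40 and 5.54 in adults. *S1pr2* to *S1pr1* overlapped as well, with 0.485, 0.887 and 0.963 at E15 against 0.636, 0.527 and 1.19 in adults. *Enpp2* to *Enpp5*, in contrast, was 15.1, 14.6 and 13.6 at E15 against 189, 187 and 180.2 in adults, so that *Enpp2* exceeded its relative in the difference between the ages by 12.9-fold.

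**Figure D3:**
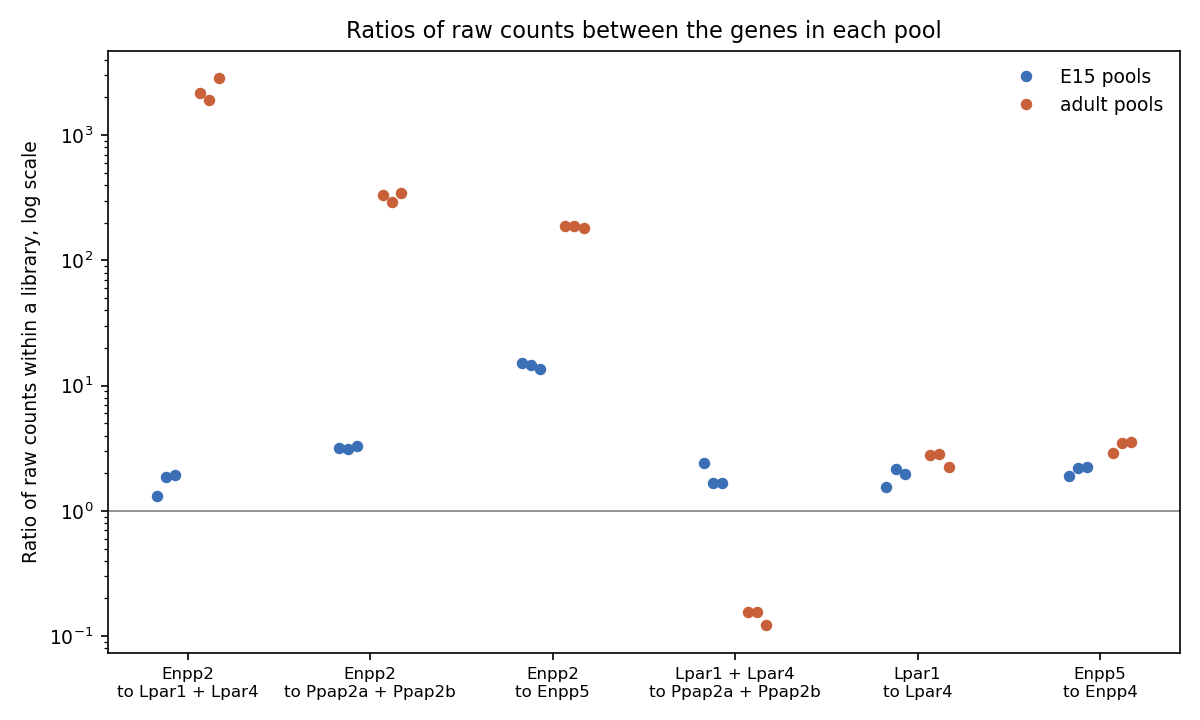
Ratio of raw counts within each library (log scale) for 6 pairs of genes or sums of genes, with blue points for the E15 pools, orange points for the adult pools and a line at 1. *Enpp2* to *Lpar1* plus *Lpar4* moves from between 1.31 and 1.95 at E15 to between 1897 and 2852 in the adult, whereas *Lpar1* to *Lpar4* moves from between 1.57 and 2.16 to between 2.24 and 2.87.

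The E15 pools were not alike for the receptors. The high value of *Lpar1* and *Lpar4* in E15 replicate 1 went with a high sum of proliferation markers, 17055 normalized counts against 11742 and 13138 in replicates 2 and 3. It also went with the highest sum of 7 markers of developing neurons, 4518 against 1464 and 3296. In these lists *Ccnb1* (2090, 2042 and 2307 in replicates 1 to 3) and *Tubb3* (1705, 856 and 1849) were highest in replicate 3. The other matched markers of both lists were highest in replicate 1. Between replicates 2 and 3 the neuron sum differed while the counts of *Lpar1* and *Lpar4* were alike. The low value of *S1pr2* in E15 replicate 1 went with the lowest endothelial sum, 8665 against 12636 and 10682, and with the lowest sum of red cell markers, 57332 against 100813 and 99166. This was not particular to those lists. The epithelial sum was also lowest in that pool, 433453 against 524993 and 538093, as were the stromal, macrophage, ependymal and meningeal sums. The astrocyte sum was highest there, 184 against 164 and 145. *S1pr1*, however, was highest in that pool, with 493 normalized counts against 413 and 425. The endothelial markers did not agree either. *Pecam1* was highest there, with 476 against 405 and 326, and *Tek* and *Emcn* lay between the other E15 pools. *Cdh5*, *Flt1*, *Tie1*, *Plvap* and *Esam* were lowest there. The part of these cells in the receptor counts was not tested. Among the E15 pools *Lpar4*, *Lpar1* and *S1pr2* had coefficients of variation of 44.5, 26.7 and 26.1%, where the median over the 10930 genes was 13.5%. *Enpp4* was near it at 15.2%, and the other 6 genes lay below it, from 4.64% for *Ppap2a* to 12.4% for *Ppap2b*, with *Enpp2* at 9.75%.

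**Figure D4:**
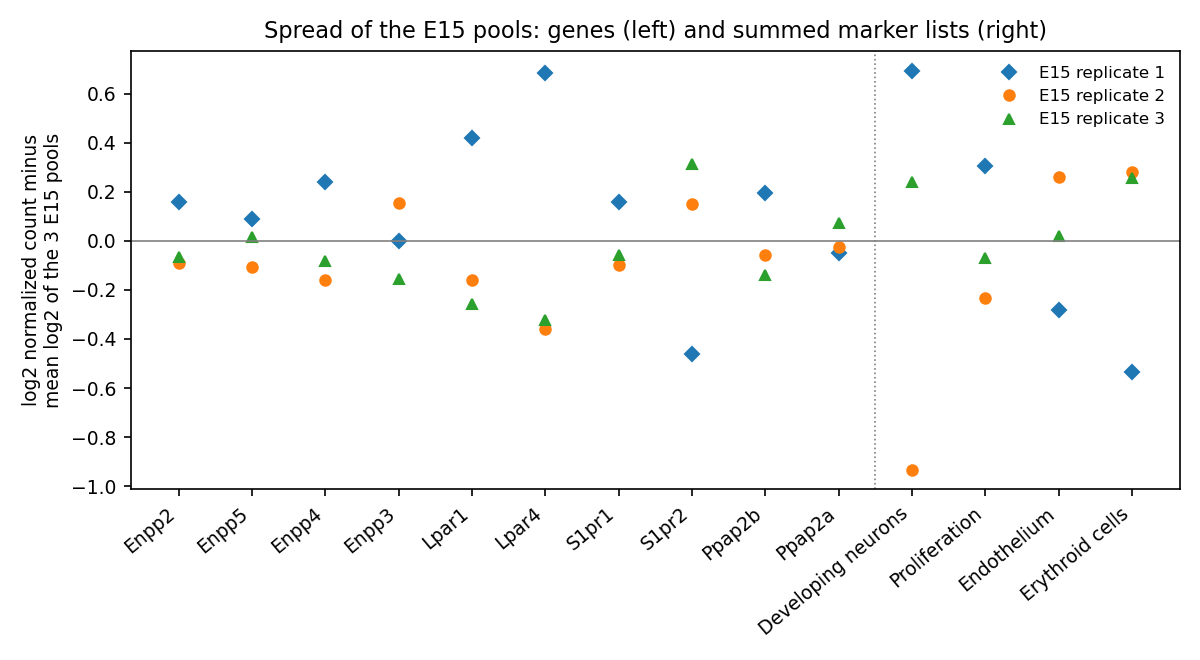
Deviation of each E15 pool from the mean of the 3 E15 pools, in log2 normalized counts, for the 10 genes at left and for 4 summed marker lists at right. E15 replicate 1 lies highest for *Lpar1*, *Lpar4*, the developing neuron list and the proliferation list, and lowest for *S1pr2*, the endothelial list and the red cell list, whereas *S1pr1* lies highest in it. Of the lists not drawn, those of epithelium, stroma, macrophages, ependyma and meninges were also lowest in E15 replicate 1, and that of astrocytes was highest.

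The other marker lists were likewise matched only among genes the authors had called, and moved as follows. Of all genes tested, 34.7% were called at E15 and 29.3% in the adult. All 7 markers of developing neurons, the 4 matched of 7 red cell markers and the 4 matched of 5 proliferation markers were higher at E15, and the 2 matched of 4 astrocyte markers were higher in the adult. Of 7 markers of mesenchyme and stroma, 5 were higher at E15 and 2 in the adult, with sums of 40524 to 53787 and 15353 to 15944. The 4 matched of 7 macrophage markers and the 4 meningeal markers each held 2 in either direction, and of the 3 matched of 4 ependymal markers 2 were higher at E15 and 1 in the adult. The ependymal marker *Tmem212* was at 0 in every E15 pool, and the neuronal markers *Neurod6* and *Nhlh1* were at 0 in every adult pool. The part of these cells in the 10 genes was not tested.

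Further genes of the pathway were taken from a list of 98 genes ordered by role. Beside the 10 genes above, 50 others were matched in the table of called genes, and the other 38 were not analysed here. The 50 had thus also been chosen by the authors' call in this contrast, and their counts are a description. In the quasi-likelihood test 19 were called at E15, 30 in the adult and 1 in neither direction, with a median log2 fold change of -0.71 against 0.14 over all genes tested, of which 34.7% were called at E15 and 29.3% in the adult. Under total counts only, 20 were called at E15, 16 in the adult and 14 in neither, and of all genes 58.9% were then called at E15 and 13.8% in the adult. The share called at E15 went from 38.8% to 55.6% of the calls, with adult calls down from 30 to 16 and E15 calls at 19 and 20. Since the authors had called all 50 genes, the counts by role below, too, are read against these shares only as a description.

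Relatives of the lipid phosphate phosphatases were higher at E15 in 3 of 8 cases and in the adult in 5, where 34.7% and 29.3% of all genes were called. Under total counts only, 3 were called at E15 and 3 in the adult, and *Ppapdc1a* and *Ppapdc3* were not called. *Ppap2c* (lipid phosphate phosphatase 2) averaged 64.6 ± 10.2 normalized counts in embryonic and 526 ± 50.7 in adult pools (SD, n = 3), 8.13-fold higher in the adult and the largest difference among the 3 classical phosphatases. *Ppapdc2*, which acts on isoprenoid diphosphates, went from 486 ± 60.0 to 1726 ± 188, 3.55-fold. *Lppr4* (plasticity-related gene 1), a protein without phosphatase activity that modulates LPA signalling at synapses, went from 59.4 ± 12.4 to 452 ± 6.70. Its relative *Lppr3* had the opposite direction, counted 1646, 3191 and 3146 times at E15, against 13, 30 and 14 times in adults. *Lppr3* was lowest in E15 replicate 1, the pool with the highest sum of neuronal markers, and was 80.8-fold higher at E15.

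Of 4 matched genes of LPA synthesis and the turnover of its substrates, *Lpcat1*, *Pla2g4a* and *Pla2g6* were higher at E15 under TMM and under total counts. Of all genes tested, 34.7% and 58.9% were called at E15 under these scalings. The lysophosphatidylcholine acyltransferase *Lpcat1*, which turns the substrate of autotaxin back into phosphatidylcholine, averaged 2553 ± 184 normalized counts in embryonic and 527 ± 34.9 in adult pools (SD, n = 3), 4.85-fold higher at E15. The phospholipase *Pla2g4a*, which releases arachidonic acid and leaves a lysophospholipid, was 3.63-fold higher at E15, with 218 ± 5.97 and 59.7 ± 24.2. *Gdpd1*, an intracellular enzyme that can form LPA, was 2.52-fold higher in the adult. The acyltransferases that use LPA to build phosphatidic acid, 4 of 4, were higher in the adult under TMM, where 29.3% of all genes tested were. With total counts only, 3 were called in the adult and 1 at E15, where the shares of all genes were 13.8% and 58.9%. *Agpat3* was counted 2283, 2123 and 2217 times at E15, against 7724, 9763 and 8292 times in adults, a 6.68-fold difference in normalized counts. *Agpat2* was 5.63-fold and *Agpat5* 3.98-fold higher in the adult, whereas *Agpat4*, 1.43-fold higher in the adult under TMM, was called at E15 under total counts only.

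Of 4 matched genes of S1P synthesis, export and removal, 2 were higher at E15 and 2 in the adult. Of all genes tested, 34.7% and 29.3% were called in those directions. Sphingosine kinase 1 (*Sphk1*) was counted 169, 223 and 165 times at E15, against 12, 11 and 11 times in adults, 9.42-fold higher at E15 in normalized counts. *Spns2*, the exporter that carries S1P out of endothelial cells, was 5.52-fold higher at E15, with 364 ± 42.0 and 65.8 ± 16.7 normalized counts (SD, n = 3). Both stood with the receptors *S1pr1* and *S1pr2* in direction. Sphingosine kinase 2 (*Sphk2*) was 1.67-fold higher in the adult under TMM and was not called under total counts only. *Sgpp1*, which dephosphorylates S1P inside the cell, was 3.98-fold higher in the adult, with 220 ± 12.1 and 876 ± 48.2.

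Genes of ceramide and sphingosine supply were higher in the adult in 15 of 19 cases under TMM and in 7 of 19 under total counts only, where 8 were not called. Of all genes tested, 29.3% and 13.8% were called in the adult under these scalings. Acid ceramidase (*Asah1*), the lysosomal enzyme that frees sphingosine, averaged 1519 ± 342 normalized counts in embryonic and 13244 ± 292 in adult pools (SD, n = 3), 8.72-fold. Neutral ceramidase (*Asah2*) was 5.06-fold, acid sphingomyelinase (*Smpd1*) 2.75-fold and the dihydroceramide desaturase *Degs1* 2.54-fold higher in the adult, and all of these were called in the adult under both scalings. The alkaline ceramidase *Acer2* was 4.65-fold and the ceramide synthase *Lass1* (now *Cers1*) 4.54-fold higher at E15. *Lass1* had 146 raw counts in E15 replicate 1 and 406 in each of the other E15 pools.

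The genes through which these receptors signal divided 3 and 3, where 34.7% and 29.3% of all genes tested were called at E15 and in the adult. *Gnai2*, an inhibitory G protein subunit, was 2.70-fold higher at E15 with 10368 ± 1043 and 3833 ± 275 normalized counts (SD, n = 3), and *Gnai1*, of the same class, was 3.82-fold higher in the adult with 547 ± 79.5 and 2090 ± 126. *Gnaq*, which couples receptors to phospholipase C, was 2.15-fold and *Gna12*, another G protein subunit, 1.90-fold higher at E15. Under total counts only, 3 of these genes were called at E15 and 1 in the adult, where the shares of all genes were 58.9% and 13.8%. Among the remaining LPA receptors, 2 of 2 matched genes were higher at E15, and of 2 matched S1P receptors 1 was higher at E15 and 1, *S1pr5*, was not called.

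**Figure D5:**
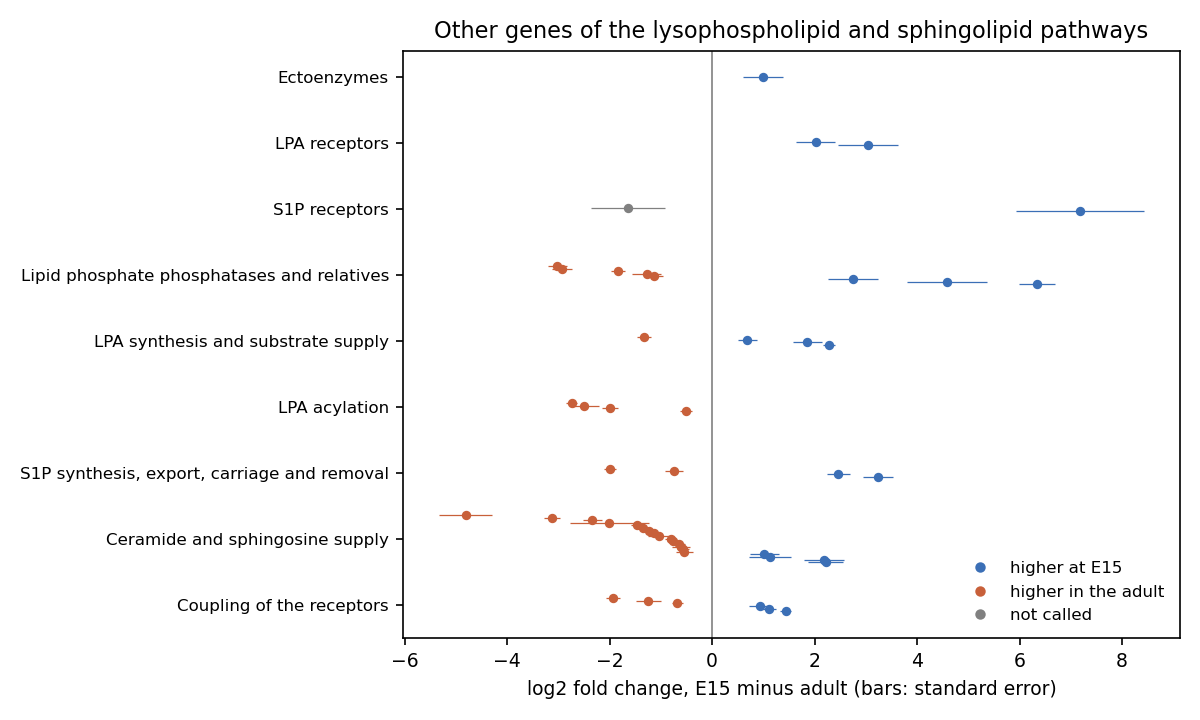
Fitted log2 fold change (E15 minus adult, TMM) with its standard error for the 50 other pathway genes, in 9 groups by role, blue for genes called at E15, orange for genes called in the adult and grey for the gene not called. The LPA acylation group lies wholly on the adult side, most of the ceramide and sphingosine group lies there too, and the phosphatase relatives spread from -3.02 to 6.34.

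Reads of overlapping genes could not be told apart if the counting ignored the strand, which the sources used here do not state. In the RefSeq annotation *Ppap2a* overlaps the protein-coding gene *Mtrex*, and *Ppap2b*, *Enpp3* and *Enpp4* overlap long non-coding RNAs, while no overlap was listed for *Enpp2*, *Enpp5* or the 4 receptors.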

How the data were processed

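The authors mapped trimmed reads to the Ensembl rat genome with Bowtie 0.12.7, which does not align across splice junctions, kept uniquely placed reads and counted them per nuclear gene with HTSeq 0.4.7p4. For the build name and the strand setting, the sources used here give nothing. The deposited raw counts per gene and pool were the input here. A second deposited table holds the log2 fold changes, log2 abundances and p-values of genes the authors called with edgeR 2.4.0. Only its names were used, which 10093 of its 10653 identifiers carry, and it writes *Enpp2* as ENPP2_RAT.

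Groups came from sample titles. Genes whose counts summed to more than 10 were fitted by age in edgeR 4.0.16 (R 4.3.3), with TMM factors of 1.32 to 1.33 at E15 and 0.735 to 0.773 in the adult, and p-values were adjusted by the Benjamini-Hochberg method at 0.05. The fit was tested on simulated data. Pools of one age were never alike within sampling noise (chi-square of 5.43 to 56.8 per degree of freedom). Alternatives were RLE, upper quartile and total-count scaling, total counts without the 10 top genes, 3 filters, DESeq2 1.42.0, limma-voom 3.58.1, the edgeR exact test, the replicate number as a block and each pool left out.

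The genes and lists were chosen with earlier results of these data known. Every gene of the rule is named, pathway genes with a mean normalized count above 100 at an age could be named with values, and the genes most like *Enpp2* were the 5 named genes with the smallest difference of profile (pseudocount 0.5). RefSeq (GRCr8) gave promoters and neighbours only, since the counts rest on another annotation.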

Additional observations from a re-analysis of the deposited data

How the results depend on the processing

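Over 17 alternatives no direction of the 10 genes reversed. Under scaling by total counts only, 3 of the 10 genes were called in the adult in place of 5, since *Ppap2b* (log2 fold change -0.06) and *Ppap2a* (-0.30) were no longer called, and 16 of the other pathway genes were called in the adult in place of 30. That scaling shifts the zero point of every gene. All other alternatives kept the calls of the 10 genes. With each pool left out in turn, the log2 fold change of *Enpp2* was -7.66 to -7.53, 5 genes were called at E15 and 5 in the adult, and 16 to 18 of the other pathway genes were called at E15 and 29 to 31 in the adult. *Lpar4* moved most, from 2.80 without E15 replicate 1 to 3.41. Replicate numbers did not pair the pools: deviations of pools with the same number correlated at -0.034, 0.057 and -0.14 over 10930 genes. With the replicate number as a block, *Enpp2* had a log2 fold change of -7.58, and 5 genes were called at each age. In the adult, *S1pr1* rests on 53 to 131 reads a pool, *S1pr2* on 56 to 69 and *Lpar4* on 84 to 105.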
